A study of Danio rerio with 23 samples.

Results

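The question addressed here is whether the response of zebrafish embryos to the transgene hs:dkk1b was of the same size at a later and an earlier time, gene by gene. The measure is an interaction: the log2 fold change of transgenic embryos over their siblings at 7.5 hours post fertilisation (hpf), minus the same log2 fold change at 5.5 hpf. It is taken from 12 of the 23 RNA-seq libraries of the series, 3 in each of 4 groups, chosen by their titles alone. All 23 libraries entered the fit, so the spread behind the p-values also draws on the other cross of the series, hs:wnt8a. Every gene that passed the filter on low counts was tested except dkk1b itself, 19503 of the 31743 genes in the tables. A negative difference means that a gene was lower in transgenic embryos, relative to their siblings, at 7.5 hpf than at 5.5 hpf.

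The 4 groups, all of whole embryos, were transgenic embryos titled 7.5 hpf, their siblings at 7.5 hpf, transgenic embryos titled 5.5 hpf and their siblings at 5.5 hpf. Transgenic embryos were hs:dkk1b/+, from carriers crossed to wild-type fish, and were recognised by fluorescence. Their siblings were genotypically wild type and went through the same heat shock, 60 minutes at 37 °C in tubes of 10 embryos with recovery at 29 °C, so all 4 groups were heat shocked and differ in genotype and time. A heat-shock promoter drives the transgene in every cell that responds to heat, so it does not follow where dkk1b is normally made. The time point field of the labels gives 7 and 5 hpf where the titles give 7.5 and 5.5 hpf. It is unclear from the labels whether these are times of heat shock or of collection, and the title values serve as names. Nor is it stated whether replicate libraries were made from different clutches, so the p-values reflect variation among these libraries, part of which may be technical.

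Dkk1b is a secreted antagonist that binds the Wnt co-receptors Lrp5 and Lrp6 and blocks signalling through beta-catenin. In the gastrulating zebrafish embryo, Wnt/beta-catenin signalling from the margin maintains mesoderm progenitors and gives neural ectoderm posterior identity, and it induces several of its own inhibitors. Genes downstream of the pathway can therefore fall when Dkk1b is made, while anterior neural genes can spread.

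The 12 libraries held 13845788 to 17183937 counts each (median 16237892), and 22615 to 24244 genes were detected per library. A pair of libraries stood apart at each time. At 7.5 hpf it was replicate 1, in which hsp70l, the heat-inducible Hsp70 chaperone, reached 2652 CPM (counts scaled to the TMM library size) in transgenic embryos and 1227 CPM in siblings, against 56.6 to 77.9 CPM in the other transgenic and 40.6 to 43.8 CPM in the other sibling libraries of that time. At 5.5 hpf it was replicate 2, in which fsta, a follistatin, was at 0.554 CPM in transgenic embryos and 0.589 CPM in siblings, against 11.4 to 12.1 CPM and 7.33 to 7.61 CPM in the other libraries, while piwil1, a germ-line gene, was high at 31.6 and 28.0 CPM against 4.08 to 5.29 CPM and 4.84 to 5.85 CPM. In each of these pairs the transgenic library and the sibling library moved together. At 5.5 hpf, siblings of replicates 1, 2 and 3 held 22.9, 78.4 and 26.1 CPM of nanog. For cdx1a they held 84.9, 29.2 and 92.7 CPM. Siblings at 7.5 hpf held 8.99 to 17.1 CPM and 157.5 to 180.6 CPM, so replicate 2 lay furthest from them in both genes. Crabp2b went the other way, at 812.5, 510.8 and 740.2 CPM against 400.7 to 521.3 CPM, as did tagln2. Whether the 3 pairs at 5.5 hpf were of the same stage was not tested. The comparison was defined within pairs of equal replicate number, and the transgene effect was taken in that way.

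The transgene itself was examined first. In transgenic embryos at 7.5 hpf, dkk1b (ENSDARG00000045219) stood at 19050, 2328 and 3497 CPM, against 44.0, 18.4 and 54.0 CPM in siblings. At the earlier time the values were 3950, 2870 and 2290 CPM in transgenic embryos and 19.9, 55.1 and 17.3 CPM in siblings. Every transgenic library lay far above every sibling library at both times. The log2 fold change was 7.24 ± 0.51 (SE) at 7.5 hpf and 6.76 ± 0.50 (SE) at 5.5 hpf, and their difference of 0.48 ± 0.59 (SE) was smaller than its error. The highest value, replicate 1 at 7.5 hpf, came from the pair with the highest hsp70l of that time.

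Across the transcriptome, 3 of 19503 genes passed the test of the difference (edgeR quasi-likelihood test, adjusted p under 0.05), which is 0.0154% of the genes tested. They were notum1a, noto and ism1, and all 3 were lower in transgenic embryos, relative to siblings, at the later time. No gene passed in the other direction in this fit or by DESeq2, which called the same 3 genes. Other edgeR fits did call genes as higher: AL953867.1, with a mean log2 CPM of -1.98, in the fit of the 12 libraries alone, and AL953867.1 and irx3a with no filter on low counts. At an unadjusted p under 0.05 there were 671 genes, 3.44% of those tested, of which 349 (1.79%) were lower and 322 (1.65%) higher at 7.5 hpf. The median difference over all genes tested was 0.00 on the log2 scale, and 49.8% of the differences were negative. Among the 13251 genes with a mean log2 CPM of at least 1, the median 95% interval of the difference reached 0.40 to either side, and for 98.1% of them it reached less than 1.

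**Figure D1:**
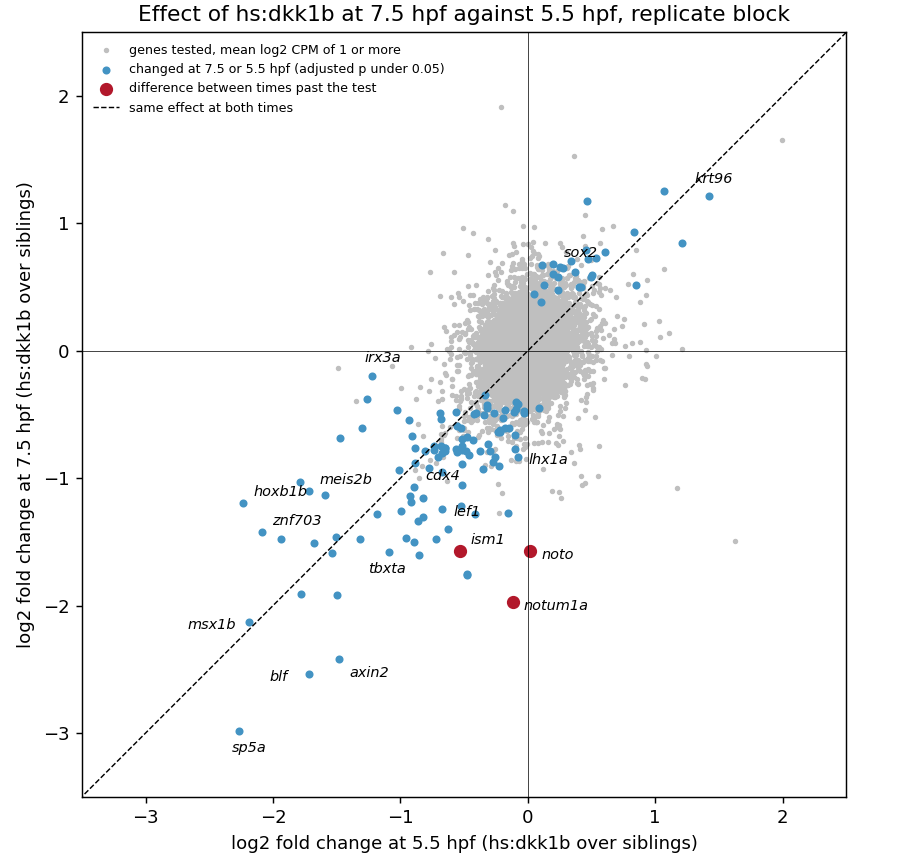
Log2 fold change of hs:dkk1b embryos over siblings at 7.5 hpf (vertical axis) against that at 5.5 hpf (horizontal axis), 1 point per gene with a mean log2 CPM of at least 1. Blue points passed the test at either time, red points passed the test of the difference, and the dashed line marks an equal effect; notum1a and noto sit near 0 on the 5.5 hpf axis and at -1.98 and -1.57 on the 7.5 hpf axis.

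Notum1a (ENSDARG00000031126) is a secreted enzyme that removes the lipid of Wnt ligands and is known as a feedback inhibitor of the pathway. At 7.5 hpf it stood at 14.8, 17.5 and 11.4 CPM in transgenic embryos, against 67.4, 45.6 and 59.5 CPM in siblings. The 5.5 hpf values were 49.2, 116 and 41.1 CPM in transgenic embryos, against 59.9, 103 and 48.9 CPM in siblings. The groups were far apart at 7.5 hpf and overlapped at 5.5 hpf. Within pairs, the log2 ratio of transgenic to sibling was -2.18, -1.38 and -2.37 at 7.5 hpf and -0.28, 0.17 and -0.25 at 5.5 hpf. The fitted log2 fold change was -1.98 at 7.5 hpf (adjusted p = 1.63e-05), a level 0.254 times that of siblings, and -0.12 at 5.5 hpf (adjusted p = 1), a level 0.923 times that of siblings. The difference was -1.86 ± 0.21 (SE; 95% interval -2.31 to -1.41; adjusted p = 0.00702).

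Noto (ENSDARG00000021201), a homeobox transcription factor needed for the notochord, showed the same contrast between times. Transgenic embryos at 7.5 hpf held 12.1, 15.7 and 11.4 CPM, against 37.3, 40.2 and 38.3 CPM in siblings. Transgenic embryos at 5.5 hpf held 41.0, 62.2 and 39.1 CPM, against 43.2, 57.0 and 39.1 CPM in siblings. The 3 transgenic libraries at 7.5 hpf lay below all other libraries, which overlapped. The log2 fold change was -1.57 at 7.5 hpf (adjusted p = 7.26e-05) and 0.02 at 5.5 hpf (adjusted p = 1). The difference was -1.59 ± 0.21 (SE; 95% interval -2.04 to -1.15; adjusted p = 0.0131), and the 3 pairs at 7.5 hpf (-1.62, -1.35 and -1.74) lay below the 3 at 5.5 hpf (-0.08, 0.12 and 0.00).

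Ism1 (ENSDARG00000020541), a secreted protein of the isthmin family, had fallen at both times, and by more at the later one. At 7.5 hpf it stood at 26.9, 29.1 and 26.1 CPM in transgenic embryos, against 76.9, 90.6 and 77.3 CPM in siblings. At 5.5 hpf the levels were 69.1, 123 and 59.1 CPM in transgenic embryos, against 109, 152 and 92.3 CPM in siblings. Each transgenic library was below its own sibling library in all 6 pairs, but the groups overlapped at 5.5 hpf. The log2 fold change was -1.57 at 7.5 hpf (adjusted p = 1.47e-06) and -0.53 at 5.5 hpf (adjusted p = 0.0179), and the difference was -1.04 ± 0.13 (SE; 95% interval -1.31 to -0.77; adjusted p = 0.00903).

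In siblings, the mean level at 7.5 hpf was 0.815 times that at 5.5 hpf for notum1a, 0.831 times for noto and 0.693 times for ism1, changes that were not tested here. The highest sibling value of each gene was replicate 2 at 5.5 hpf, from the pair that stood apart. The sibling libraries of both times overlapped for notum1a and noto, but not for ism1. For notum1a, sibling replicates 1 and 3 stood at 59.9 and 48.9 CPM at 5.5 hpf and at 67.4 and 59.5 CPM at 7.5 hpf. Per length, in the authors' deposited TPM (transcript counts scaled for gene length and library size), noto averaged 33.3 in transgenic embryos and 96.3 in siblings at 7.5 hpf, and 114 in transgenic embryos and 112 in siblings at 5.5 hpf. Notum1a averaged 16.4 and 63.8 TPM in transgenic embryos and siblings at 7.5 hpf, and 72.4 and 74.7 TPM at 5.5 hpf. Ism1 averaged 14.6 and 42.4 TPM at 7.5 hpf, and 41.8 and 59.0 TPM at 5.5 hpf, in the same order. In whole embryos, fewer cells expressing a gene and less RNA per cell cannot be told apart.

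The size of the 3 differences moved little with the libraries used, and the calls moved more. Leaving out 1 library at a time kept notum1a between -2.17 and -1.67, noto between -1.71 and -1.51 and ism1 between -1.104 and -0.92. Noto missed the threshold whichever of the 12 libraries was left out (adjusted p 0.0570 to 0.138), and ism1 missed it without either replicate 2 library at 5.5 hpf and with any 1 of the 7.5 hpf libraries left out (adjusted p 0.0570 to 0.0835). Notum1a missed it without either library of replicate 2 at 5.5 hpf (-1.71), of replicate 1 at 7.5 hpf (-1.75) or of replicate 3 at 7.5 hpf (-1.67), with adjusted p between 0.0559 and 0.0815. Without both pairs that stood apart, the differences were -1.60 for notum1a, -1.51 for noto and -0.95 for ism1, none past the threshold (adjusted p 0.333, 0.540 and 0.333), with 674 genes at an unadjusted p under 0.05. A fit that took no account of the pairing called 0 genes (170 at an unadjusted p under 0.05), with differences of -1.94, -1.60 and -1.08 for the 3 genes (adjusted p 1.00, 0.177 and 1.00).

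**Figure D2:**
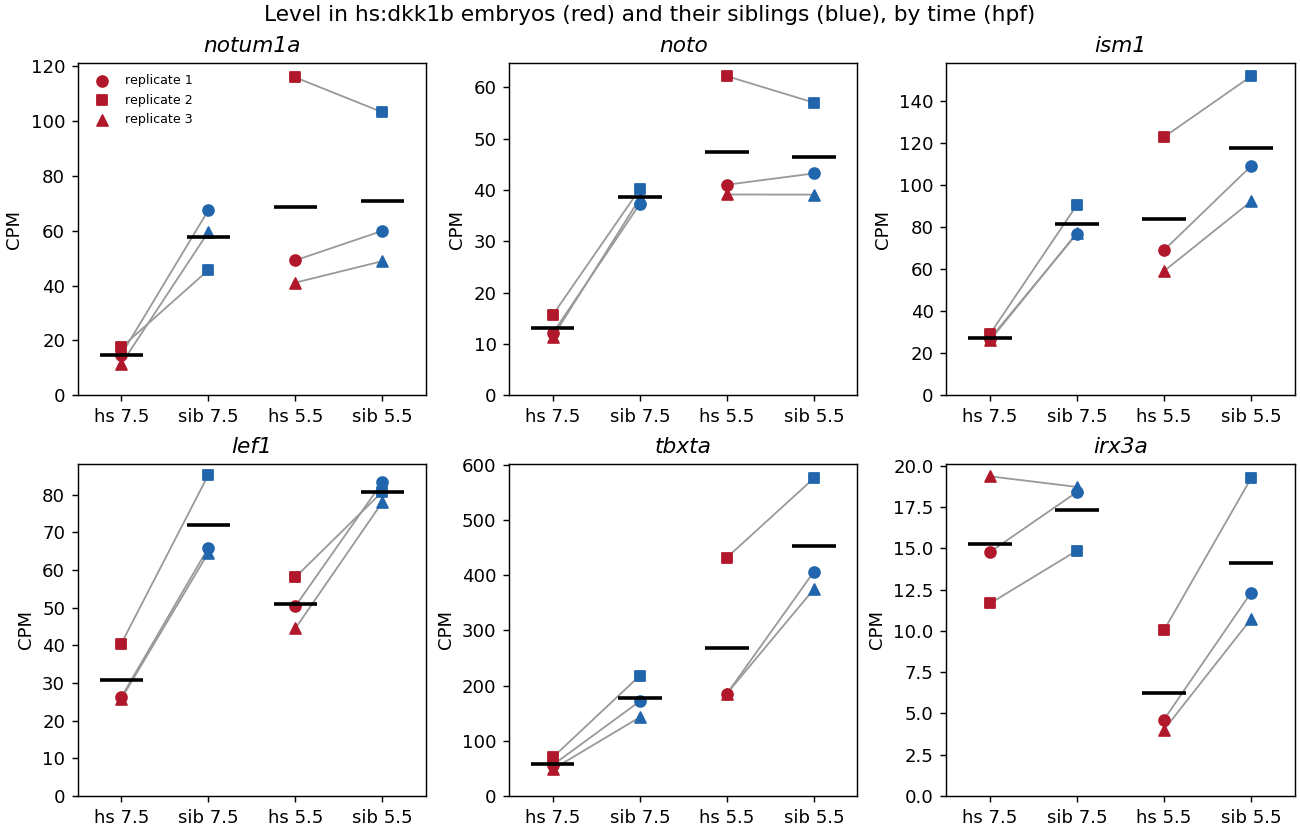
Level in CPM (counts scaled to the TMM library size, linear axes from 0) of 6 genes in each of the 12 libraries, by group, with grey lines joining the transgenic (red) and sibling (blue) libraries of equal replicate number and black bars at the group means. For notum1a, noto and ism1 the lines are steep at 7.5 hpf and flatter at 5.5 hpf; irx3a shows the opposite, with 4.01 to 10.0 CPM in transgenic embryos and 10.7 to 19.2 CPM in siblings at 5.5 hpf.

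The same contrast in the other cross of the series, hs:wnt8a, was set beside them. Its transgenic group at 5.5 hpf had only replicates 1 and 2, so this contrast rests on fewer pairs. Wnt8a is a Wnt ligand, and those embryos had a heat shock of 30 minutes at 39 °C, so the crosses differ in regime as well as in transgene. There the change of the transgene effect between times was 0.12 ± 0.22 (SE) for notum1a, 0.54 ± 0.22 (SE) for noto and 0.32 ± 0.14 (SE) for ism1, none past the threshold (adjusted p 0.891, 0.463 and 0.479). The hs:wnt8a contrast called 19 genes, 0.0974% of those tested. A test of the dkk1b difference minus the wnt8a difference called 11 genes, 0.0564%, among them notum1a (-1.98 ± 0.30 SE, adjusted p = 0.0287), noto (-2.13 ± 0.31 SE, adjusted p = 0.0189) and ism1 (-1.36 ± 0.19 SE, adjusted p = 0.0148). That test contains the same dkk1b difference by which notum1a, noto and ism1 were called, so it is no separate evidence for them. Of the other 8, none had a dkk1b difference past the threshold; sox2, for example, stood at 0.49 in hs:dkk1b and -1.12 in hs:wnt8a, and six3b at -0.10 and -2.90.

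Read one time at a time, the transgene changed 143 genes at 7.5 hpf (0.733% of genes tested), 113 lower (0.579%) and 30 higher (0.154%). At 5.5 hpf it changed 47 (0.241%), 45 lower (0.231%) and 2 higher (0.0103%). With any 1 of the 7.5 hpf libraries left out, 51 to 64 genes were called at 7.5 hpf, and without either library of replicate 1 or 3 at 5.5 hpf, 16 or 17 were called at 5.5 hpf. The lists shared 38 genes, 80.9% of the 5.5 hpf list and 26.6% of the 7.5 hpf list. All 38 moved in the same direction at both times, and the change was larger at 7.5 hpf for 22 of them. For 24 of the 38, the 95% interval of the difference held 0. Of the 105 genes called at 7.5 hpf and not at 5.5 hpf, 55 had an interval that held 0, as did 4 of the 9 called at 5.5 hpf and not at 7.5 hpf. Of these 105 and 9 genes, notum1a and noto passed the test of the difference itself. The 38, 105 and 9 genes were grouped by the same 2 effects that make up the difference. How many of their intervals held 0 therefore describes these groups and is no test of a change between times. Over all genes tested, 3.44% had a difference at an unadjusted p under 0.05.

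Among the Wnt feedback inhibitors, genes that the pathway switches on and that dampen it, 12 were tested and 1 passed, notum1a. The differences of 8 were negative (66.7%, against 49.8% of all genes). At an unadjusted p under 0.05, 4 were lower (33.3%, against 1.79% of all genes). This list, like all those below, was chosen with earlier results of these data known, so its counts are descriptions. The list's median difference was -0.20, against 0.00 over all genes. Without either library of replicate 1 at 7.5 hpf or of replicate 2 at 5.5 hpf 2 were lower at that p, and the median was -0.03 without either library of replicate 1 at 5.5 hpf. Axin2, a scaffold of the complex that degrades beta-catenin, stood at 22.4, 30.3 and 27.5 CPM in transgenic embryos and 168, 130 and 132 CPM in siblings at 7.5 hpf. The corresponding levels at 5.5 hpf were 33.0, 51.1 and 37.3 CPM in transgenic embryos and 137, 85.9 and 117 CPM in siblings. It was lower in transgenic embryos in all 6 pairs with no overlap of the groups at either time. Its log2 fold change was -2.42 at 7.5 hpf and -1.48 at 5.5 hpf, both past the test, and the difference of -0.94 ± 0.32 (SE) was not (adjusted p = 1). Notum1b, the other notum gene, was scarce: 0.563, 0.569 and 0.947 CPM in transgenic embryos and 4.58, 2.81 and 2.42 CPM in siblings at 7.5 hpf, and 0.616 to 0.913 CPM in transgenic embryos against 0.786 to 1.47 CPM in siblings at 5.5 hpf. Its difference was -1.64 ± 0.44 (SE, adjusted p = 1), close in size to that of notum1a with a wider error. Nkd1, an inhibitor that binds Dishevelled, had a difference of -0.42 ± 0.22 (SE), with effects of -1.92 and -1.50 that both passed.

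Among Wnt transcription factors and nuclear effectors, none of 15 passed, 2 were lower and 2 higher at an unadjusted p under 0.05 (13.3% each way, against 1.79% lower and 1.65% higher of all genes), and the median difference was 0.09. Lef1, a partner of beta-catenin on DNA and itself a target, stood at 26.2, 40.5 and 25.8 CPM in transgenic embryos and 65.9, 85.3 and 64.6 CPM in siblings at 7.5 hpf. At 5.5 hpf the values were 50.4, 58.1 and 44.5 CPM in transgenic embryos and 83.4, 80.8 and 78.1 CPM in siblings. It had fallen at both times, with log2 fold changes of -1.24 at 7.5 hpf and -0.67 at 5.5 hpf, and with a difference of -0.57 ± 0.12 (SE, adjusted p = 0.593). The Sp family factors that act downstream of Wnt had negative estimates too: -0.54 ± 0.16 (SE) for sp5l, -0.71 ± 0.41 (SE) for sp5a and -0.13 ± 0.43 (SE) for sp8b, all with adjusted p of 1. For sp5a, whose effects of -2.98 at 7.5 hpf and -2.27 at 5.5 hpf were among the deepest falls, the 95% interval of the difference ran from -1.59 to 0.16. The interval for sp8b ran from -1.04 to 0.78, and its estimate was 0.46 without either replicate 2 library at 5.5 hpf. Among 27 Wnt ligands and receptors none passed, with 1 lower and 3 higher at an unadjusted p under 0.05, set against the same shares of all genes; the receptor fzd8a and the co-receptor lrp6 were at 0.38 ± 0.16 (SE) and 0.30 ± 0.13 (SE).

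Of the axial mesoderm and organizer genes 23 were tested, matched to 20 symbols. Several of them are near copies under the symbol ctslb, so the members counted are not all separate. Noto passed, and 19 of the 23 differences were negative (82.6%, against 49.8% of all genes). In lists with no gene at an unadjusted p under 0.05 this share ran from 30.4% (Bmp) to 80% (maternal). It was 76.2% for heat-shock chaperones and 75% for enveloping layer genes, so such a lean was not particular to axial mesoderm. In the axial mesoderm list 8 genes were lower at that p (34.8%, against 1.79% of all genes), with none higher. The median difference was -0.32, and in 9 of 23 (39.1%, against 5.63% of all genes) the 3 pairs at 7.5 hpf lay below the 3 at 5.5 hpf. With 1 library left out, 4 to 10 were lower at that p: 4 without either library of replicate 2 at 5.5 hpf, and 5 without either library of replicate 1 or 2 at 7.5 hpf or the transgenic library of replicate 3 at 5.5 hpf. The median then ran from -0.40 to -0.21, and 1 gene was higher at that p without either library of replicate 2 at 5.5 hpf. The fit that took no account of the pairing had 1 of the 23 lower at that p, with 19 negative and a median of -0.30. This list was drawn up with earlier results on noto and tbxta in these libraries known, so its count is a description.

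Tbxta, the Brachyury factor of mesoderm progenitors and notochord, stood at 56.0, 69.8 and 48.4 CPM in transgenic embryos and 171, 218 and 143 CPM in siblings at 7.5 hpf. At the earlier time the values were 185, 432 and 185 CPM in transgenic embryos and 406, 576 and 375 CPM in siblings. It had fallen at both times, with log2 fold changes of -1.61 at 7.5 hpf and -0.85 at 5.5 hpf, and the difference was -0.75 ± 0.17 (SE, adjusted p = 0.716). With no filter on low counts it passed (adjusted p = 0.0469), while over the alternatives its adjusted p ran from 0.0469 to 1. Lhx1a, a LIM homeobox factor of the organizer, stood at 6.01, 6.03 and 5.86 CPM in transgenic embryos and 12.4, 10.1 and 9.53 CPM in siblings at 7.5 hpf. At the earlier time it stood at 18.1, 60.3 and 14.6 CPM in transgenic embryos and 20.0, 59.5 and 16.0 CPM in siblings. Its log2 fold change was -0.83 at 7.5 hpf, past the test, and -0.08 at 5.5 hpf, with a difference of -0.75 ± 0.16 (SE, adjusted p = 0.593).

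No other member of the list passed the test. Foxd3 and frzb, a secreted Wnt antagonist, were at -0.51 ± 0.20 (SE) and -0.33 ± 0.14 (SE), and shha, a Hedgehog ligand of the axial mesoderm, at -0.45 ± 0.18 (SE). Foxa2 was at -0.44 ± 0.18 (SE), with effects of -0.07 at 7.5 hpf and 0.37 at 5.5 hpf, neither past the test. The organizer genes chrd, a Bmp antagonist, and gsc, a homeobox repressor, were at -0.28 ± 0.14 (SE) and 0.13 ± 0.17 (SE). Ctslb_1, 1 of several genes listed under the symbol ctslb, was at -1.05 ± 0.28 (SE), with effects of -0.12 at 7.5 hpf and 0.93 at 5.5 hpf, neither past the test; reads shared with its near copies cannot be told apart.

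**Figure D3:**
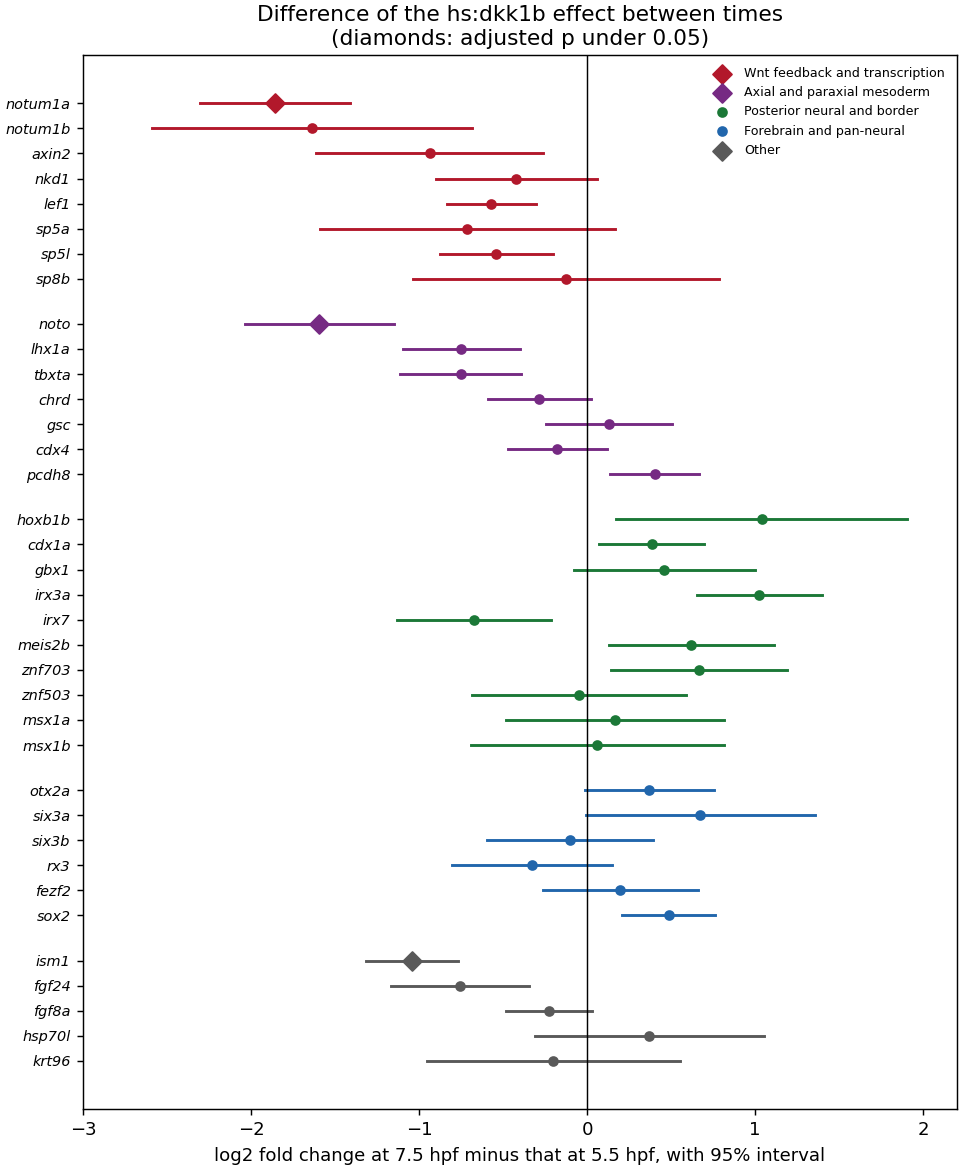
Difference of the hs:dkk1b effect (log2 fold change at 7.5 hpf minus that at 5.5 hpf) with its 95% interval for 36 named genes, coloured by group. The diamonds are notum1a, noto and ism1, which passed the test. Other intervals lie off 0 without passing. Those of lef1, lhx1a, tbxta, axin2 and sp5l, among others, lie below it. Those of hoxb1b, irx3a, meis2b, sox2 and pcdh8, among others, lie above it.

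Genes of paraxial and tailbud mesoderm did not share one direction. Of 25 tested none passed, 10 had a negative difference, 1 was lower and 3 were higher at an unadjusted p under 0.05 (1.79% and 1.65% of all genes), and the median was 0.07, with -0.04 without either replicate 3 library at 7.5 hpf. The gene lower at that p was tbxta, which is also counted in the axial mesoderm list. Pcdh8, a protocadherin of paraxial mesoderm, was at 0.40 ± 0.12 (SE), and fgf8a, an Fgf ligand of the margin, at -0.23 ± 0.12 (SE). Tbx16l, a T-box factor of mesoderm progenitors, had fallen at both times, with log2 fold changes of -1.14 at 7.5 hpf and -0.92 at 5.5 hpf, and its difference was -0.22 ± 0.13 (SE).

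Posterior neural genes showed differences of either sign, none past the test. Hoxb1b, a hindbrain Hox gene, stood at 44.6, 39.7 and 60.6 CPM in transgenic embryos and 118, 92.1 and 120 CPM in siblings at 7.5 hpf. The 5.5 hpf values were 4.81, 1.23 and 7.47 CPM in transgenic embryos and 40.7, 1.83 and 27.5 CPM in siblings. It was low in both libraries of replicate 2 at 5.5 hpf, the pair that stood apart. Its log2 fold change was -1.20 at 7.5 hpf and -2.24 at 5.5 hpf, and the difference was 1.04 ± 0.40 (SE, adjusted p = 1). Meis2b, a Hox cofactor, was at 0.62 ± 0.23 (SE), and znf703, a zinc finger repressor of posterior neural plate, at 0.67 ± 0.24 (SE).

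Irx3a, an Iroquois homeobox gene of the neural plate, had a positive difference. Its p was the smallest on that side among genes with a mean log2 CPM of at least 1 whose symbol is no clone name. At 7.5 hpf it stood at 14.8, 11.7 and 19.4 CPM in transgenic embryos and 18.4, 14.9 and 18.7 CPM in siblings. At 5.5 hpf the levels were 4.63, 10.0 and 4.01 CPM in transgenic embryos and 12.3, 19.2 and 10.7 CPM in siblings. Its log2 fold change was -0.20 at 7.5 hpf (adjusted p = 0.701) and -1.23 at 5.5 hpf (adjusted p = 4.74e-04), so here the fall was at the earlier time. The difference of 1.03 ± 0.17 (SE; 95% interval 0.65 to 1.40) did not pass (adjusted p = 0.142). It passed with no filter on low counts (adjusted p = 0.0326), and its adjusted p over the alternatives ran from 0.0326 to 1.00. Irx7, another Iroquois gene, went the other way at -0.68 ± 0.21 (SE), with effects of -0.90 at 7.5 hpf and -0.23 at 5.5 hpf.

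Over the list of 18 hindbrain and posterior neural genes, 8 had passed at 7.5 hpf (0.579% of all genes were lower) and 5 at 5.5 hpf (0.231% of all genes), all lower. None passed the test of the difference, 2 were lower (11.1%, against 1.79% of all genes) and 3 higher (16.7%, against 1.65%) at an unadjusted p under 0.05, and the median was 0.07. Over 24 cdx and hox genes none passed, with 2 higher at that p (8.33%, against 1.65% of all genes). Their median difference was 0.33, but it was -0.19 without either replicate 1 library at 5.5 hpf and up to 1.12 without either replicate 3 library, and 8 of the 24 had a mean log2 CPM of at least 1. Cdx1a, a caudal-type factor, was at 0.38 ± 0.15 (SE). Cdx4, its abundant relative, had fallen at both times, with log2 fold changes of -1.07 at 7.5 hpf and -0.89 at 5.5 hpf and a difference of -0.18 ± 0.14 (SE; 95% interval -0.47 to 0.12).

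For several genes that fell at both times the estimated difference was close to 0. Msx1b, a homeobox factor of the neural plate border, stood at 19.8, 22.4 and 20.4 CPM in transgenic embryos and 91.4, 87.2 and 95.7 CPM in siblings at 7.5 hpf, and at 9.50, 12.5 and 11.6 CPM in transgenic embryos and 72.6, 27.6 and 63.7 CPM in siblings at 5.5 hpf. Its difference was 0.06 (95% interval -0.69 to 0.81), and that of msx1a was 0.17 (-0.48 to 0.81). Znf503, the partner of znf703, had a difference of -0.05 (-0.69 to 0.59). Intervals of this width do not show that the effects were equal. The sign of these small estimates turned when single libraries were left out: msx1b reached -0.31 and msx1a -0.06 without either replicate 1 library at 5.5 hpf, and znf503 reached 0.39 without either replicate 2 library at 5.5 hpf.

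In the midbrain and the midbrain-hindbrain boundary, none of 18 genes passed, 13 had a negative difference, 2 were lower and 1 higher at an unadjusted p under 0.05 (1.79% and 1.65% of all genes), and the median was -0.42. Over the 9 members with a mean log2 CPM of at least 1 it was -0.22. Over all 18 it ran from -0.67 without either library of replicate 1 at 5.5 hpf to -0.21 without either of replicate 3. Several of these genes had few reads at 5.5 hpf in either genotype. The 2 lower at an unadjusted p under 0.05, en2a and wnt10b, were among them. Wnt10b was also the lower gene among the Wnt ligands and receptors. With only genes at 1 CPM or more in siblings at both times, 9 members were left, none lower or higher at that p. En2a, an Engrailed factor of the boundary, had 5 counts in all transgenic and 113 in all sibling libraries at 7.5 hpf, but 6 and 2 counts at 5.5 hpf, where a difference was not detectable at this depth. Wnt10b had 11 and 52 counts at 7.5 hpf, and 7 and 3 at 5.5 hpf, and fgf4, a ligand of the Fgf family outside this list, had 2 and 72 counts at 7.5 hpf, and 28 and 32 at 5.5 hpf. Wnt8b, a Wnt ligand of the neural plate, had a log2 fold change of -2.95 at 7.5 hpf (adjusted p = 6.70e-05) and of -2.28 at 5.5 hpf (adjusted p = 0.0717). Its difference of -0.67 ± 0.61 (SE) was close to its error and was 0.48 without either replicate 3 library at 5.5 hpf.

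Forebrain and eye field genes were read next. None of 22 passed, 14 differences were positive and 8 negative, and 1 was higher at an unadjusted p under 0.05 (4.55%, against 1.65% of all genes). In 7 the pairs at 7.5 hpf lay above those at 5.5 hpf (31.8%, against 5.91% of all genes), with 1 below. The median was 0.22. Without either replicate 2 library at 5.5 hpf or at 7.5 hpf it was 0.07, and 11 of the 22 differences were negative. Otx2a, an anterior head gene, stood at 154, 164 and 142 CPM in transgenic embryos and 97.7, 116 and 94.2 CPM in siblings at 7.5 hpf, and at 228, 145 and 199 CPM in transgenic embryos and 178, 145 and 165 CPM in siblings at 5.5 hpf. Its difference was 0.37 ± 0.18 (SE). Rx3 and fezf2, which mark eye field and forebrain, had passed as higher at 7.5 hpf at log2 fold changes of 0.52 and 0.73, but with differences of -0.33 ± 0.22 (SE) and 0.20 ± 0.22 (SE). Their log2 fold changes at 5.5 hpf were 0.85 and 0.53, neither past the test. Both were almost absent in replicate 2 at 5.5 hpf, where rx3 stood at 0.185 CPM in transgenic embryos and 0.131 CPM in siblings.

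Sox2, a factor of the whole neural plate, stood at 119, 118 and 126 CPM in transgenic embryos and 73.3, 67.2 and 87.6 CPM in siblings at 7.5 hpf. The corresponding levels at 5.5 hpf were 103, 128 and 95.8 CPM in transgenic embryos and 86.1, 128 and 76.1 CPM in siblings. Its log2 fold change of 0.68 at 7.5 hpf passed the test (adjusted p = 0.00157), and at 5.5 hpf the value was 0.19 (adjusted p = 1). The difference of 0.49 ± 0.13 (SE) did not pass. Her3, a Hairy/E(spl) repressor of neurogenesis, was at -0.48 ± 0.18 (SE). Of the 22 pan-neural and pluripotency genes, none passed, and the median was -0.07. At an unadjusted p under 0.05, 1 was lower (4.55%, against 1.79% of all genes) and 2 were higher (9.09%, against 1.65%).

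Other genes with negative differences and small unadjusted p were slc43a3b, a solute carrier, at -0.87 ± 0.17 (SE, adjusted p = 0.344), foxd5, a forkhead factor of early neural plate, at -0.53 ± 0.13 (SE), fgf24, an Fgf ligand of the margin, at -0.76 ± 0.19 (SE), fsta at -0.73 ± 0.19 (SE) and rbmx2, an RNA-binding protein gene, at -0.59 ± 0.16 (SE). For fsta the effects were -0.13 at 7.5 hpf and 0.60 at 5.5 hpf, neither past the test, and the pairs of the 2 times overlapped. Fgf24 stood at 5.51, 9.79 and 5.68 CPM in transgenic embryos and 15.1, 29.4 and 14.6 CPM in siblings at 7.5 hpf. At 5.5 hpf the values were 16.0, 23.9 and 16.7 CPM in transgenic embryos and 32.6, 30.2 and 29.1 CPM in siblings. It had fallen at both times, with log2 fold changes of -1.47 at 7.5 hpf and -0.72 at 5.5 hpf. On the higher side, hey1, a Hairy-related repressor, stood at 15.5, 20.5 and 16.3 CPM in transgenic embryos and 10.4, 11.8 and 10.4 CPM in siblings at 7.5 hpf, and overlapped at 5.5 hpf, a difference of 0.56 ± 0.16 (SE). None of these passed. Blf and tpbga, which had fallen at both times, were at -0.82 ± 0.27 (SE) and -0.49 ± 0.20 (SE).

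Lateral mesoderm, blood and kidney genes had the highest list median, 0.54 over 13 tested, with 2 negative, none past the test, and 1 lower (7.69%, against 1.79% of all genes) and 4 higher (30.8%, against 1.65% of all genes) at an unadjusted p under 0.05. The gene lower at that p was lhx1a, which is also counted in the axial mesoderm list. The fit that took no account of the pairing had 1 higher at that p. With 1 library left out the median ran from 0.28, without the sibling library of replicate 3 at 5.5 hpf, to 0.53, and 2 or 3 genes were higher at that p. Over the 7 members with a mean log2 CPM of at least 1 it was 0.24. Tbx20, a T-box factor of heart precursors, had 104 counts in all transgenic and 27 in all sibling libraries at 7.5 hpf, and 23 and 29 counts at 5.5 hpf. Npas4l, the cloche factor at the top of the blood and vessel lineages, was at 0.36 ± 0.16 (SE), with effects of 0.70 at 7.5 hpf, past the test, and 0.34 at 5.5 hpf.

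In the main fit the lists of signalling pathways other than Wnt gave no call. Gdf3, a growth factor gene, was called as lower only in the edgeR fit of the 12 libraries alone (-1.13 ± 0.17 SE, adjusted p = 0.0449). For Bmp, the 23 genes had a median of 0.12 and none at an unadjusted p under 0.05. Bmp7a, a ventral ligand, had risen at 7.5 hpf, with log2 fold changes of 0.62 at 7.5 hpf and 0.37 at 5.5 hpf and a difference of 0.25 ± 0.13 (SE). The medians were 0.01 over 19 Fgf genes, -0.06 over 20 Nodal and endoderm genes, -0.07 over 18 retinoic acid genes and -0.01 over 22 planar cell polarity genes. At an unadjusted p under 0.05, where 1.79% of all genes were lower and 1.65% higher, these lists held 2, 3, 1 and no genes. The shares lower were 10.5% for Fgf, 10% for Nodal and endoderm (with 5% higher) and 5.56% for retinoic acid. Each of these 4 medians turned sign in some alternative. The median over 23 genes of the neural plate border and placodes was 0.07, with 2 lower at that p (8.7%).

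Lists that track other cells or embryo state were read alongside. The 21 heat-shock chaperones had a median of -0.08 and no gene at an unadjusted p under 0.05. Of their differences 16 were negative (76.2%, against 49.8% of all genes), and hsp70l itself was at 0.37 ± 0.32 (SE). Also with no gene at that p were 13 p53 and stress genes (median 0.02, 5 negative) and 16 enveloping layer genes (-0.03, 12 negative). The same held for 11 germ cell genes (0.06, 4 negative) and 10 maternal genes (-0.23, 8 negative). The maternal median turned to 0.09 without either replicate 2 library at 7.5 hpf, with 4 of 10 negative, and was -0.38 without either replicate 1 library at 7.5 hpf. The yolk syncytial layer list held 1 lower and 1 higher of 14 at that p (7.14% each, against 1.79% lower and 1.65% higher of all genes). The cell cycle list held 2 lower of 26 (7.69%). These were cdkn1cb and cdkn1ca, which encode inhibitors of cyclin-dependent kinases, at -0.60 ± 0.17 (SE) and -0.38 ± 0.12 (SE). Krt96, an enveloping layer keratin, had risen at both times, with log2 fold changes of 1.22 at 7.5 hpf and 1.42 at 5.5 hpf and a difference of -0.20 ± 0.35 (SE).

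**Figure D4:**
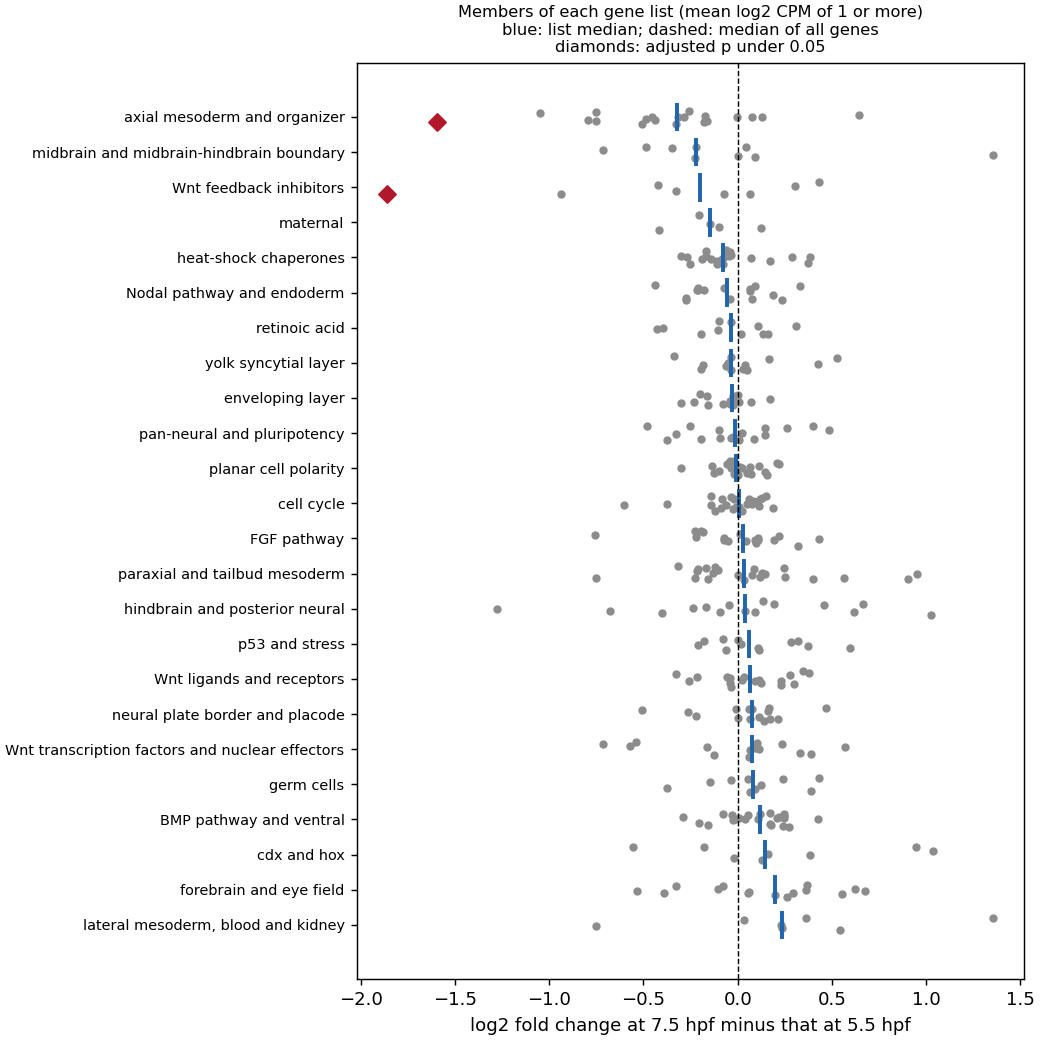
Difference of the hs:dkk1b effect (log2 fold change at 7.5 hpf minus that at 5.5 hpf) for the members of each gene list with a mean log2 CPM of at least 1, as points, with the list median in blue and the median of all genes dashed. The axial mesoderm list has the lowest median, with noto as the diamond, and notum1a is the diamond of the Wnt feedback inhibitors. Of the 23 axial mesoderm members tested, 4 had a positive difference, as did 4 of the 12 Wnt feedback inhibitors tested.

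Summed levels of marker genes were read for the other cell types of the embryo. The 9 enveloping layer markers summed to 16540 to 20300 CPM in transgenic embryos and 16780 to 19040 CPM in siblings at 7.5 hpf, and to 14470 to 18030 CPM and 14370 to 17730 CPM at 5.5 hpf, overlapping throughout. The 6 germ cell markers summed to 52.6 to 64.6 CPM in transgenic embryos and 56.0 to 71.9 CPM in siblings at 7.5 hpf, and to 151 to 362 CPM and 165 to 354 CPM at 5.5 hpf, higher at the earlier time in both genotypes. Prechordal plate and notochord markers, noto among them, were 4 symbols that matched 7 genes, several of them under ctslb. They summed to 182 to 371 CPM and 245 to 352 CPM at 7.5 hpf, and to 102 to 116 CPM and 91.5 to 109 CPM at 5.5 hpf, with the genotypes overlapping at both times. This sum does not follow noto, which alone held 11.4 to 15.7 CPM in transgenic embryos and 37.3 to 40.2 CPM in siblings at 7.5 hpf. The 3 neural plate markers summed to 555 to 577 CPM and 487 to 525 CPM at 7.5 hpf, and to 660 to 912 CPM and 626 to 851 CPM at 5.5 hpf. The yolk syncytial layer markers summed to 2046 to 3052 CPM and 2105 to 3023 CPM at 7.5 hpf and to 679 to 1195 CPM and 719 to 1156 CPM at 5.5 hpf, and the endoderm markers to 51.0 to 64.8 CPM and 56.0 to 95.1 CPM and then to 127 to 188 CPM and 134 to 206 CPM. The 3 paraxial mesoderm markers, with tbx16 among them, summed to 480 to 517 CPM in transgenic embryos and 561 to 630 CPM in siblings at 7.5 hpf, and to 430 to 687 CPM and 717 to 819 CPM at 5.5 hpf. Transgenic embryos lay below siblings in this sum at both times. None of the markers listed was without counts. Without the replicate 1 pair at 7.5 hpf, whose transgenic library had the highest hsp70l and dkk1b of that time, the 3 called differences were -1.75 for notum1a, -1.57 for noto and -1.07 for ism1, none past the threshold (adjusted p 0.0585, 0.0871 and 0.0585).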

How the data were processed

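RNA-seq of whole embryos was analysed from 1 table per library. The authors deposited counts (whole-number expression values), TPM and RPKM; the counts were tested, the TPM are printed only as the authors' values per length, and the deposited RPKM were not used. The submitters' processing notes name edgeR and GRCz11; aligner, counter and strand use are not given in the sources.

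All 23 libraries entered 1 fit in edgeR 4.0.16 (R 4.3.3): TMM scaling, filterByExpr, quasi-likelihood test, 12 blocks of line, time and replicate number and 4 transgene effects (7 residual degrees of freedom), with Benjamini-Hochberg adjustment over all genes but dkk1b and 0.05 as the threshold. Same-numbered transgenic and sibling libraries were taken as pairs, as the comparison was defined. They deviated from their group means together (r 0.465 to 0.707 in all 6 pairs). For other numbers r was -0.510 to 0.107. Centring each group on its own mean pulls these values below 0 when same-numbered libraries deviate together, so they are no separate evidence of pairing. CPM use TMM library sizes. The SE is the absolute log2 value divided by the square root of F. No library was a copy of another: within groups, chi-square divided by its degrees of freedom was 7.45 to 48.3.

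Named genes were those called, the 12 with the smallest p on each side, up to 3 per list, and a set of patterning genes. The 12 were taken among genes with a mean log2 CPM of at least 1 whose symbol is no clone name. Other list members that appear in the text (shha, frzb, lrp6, tbx16l, npas4l) were chosen after their values were seen. So were AL953867.1, CR450805.1, BX571854.1 and gdf3. The members, the 24 lists (469 symbols, 5 without a match) and the rule were chosen with earlier results of these data known. The lists share members, with 498 entries for the 469 distinct symbols. Tbxta, lhx1a, foxa2, foxd3, wnt10b and pax8, among others, are counted in more than 1 list. Alternatives left out the block, used only the 12 libraries, RLE size factors, DESeq2 1.42.0 or other filters, and left out libraries. The script was tested on simulated data.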

Additional observations from a re-analysis of the deposited data

Results flagged for a closer look

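For 3 genes the effect of hs:dkk1b at 7.5 hpf differed from that at 5.5 hpf by the test of the difference itself. The difference on the log2 scale was -1.86 for notum1a, -1.59 for noto and -1.04 for ism1. For each gene the 3 pairs at 7.5 hpf lay below the 3 at 5.5 hpf, as they did for 5.63% of all genes tested. The difference was taken from these same pairs, so their order is no separate evidence. With 3 libraries in each group, Dixon's test for a single far library was not run; the pairs that stood apart in hsp70l at 7.5 hpf and in fsta and piwil1 at 5.5 hpf are described above.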

How the results depend on the processing

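The difference between times called 3 genes. The fit with no replicate block called 0 (170 at an unadjusted p under 0.05), with the values of notum1a, noto and ism1 at -1.94, -1.60 and -1.08; that fit called 29 genes at 7.5 hpf and 9 at 5.5 hpf, where the paired fit called 143 and 47. The 12 libraries alone called 7, 6 lower and 1 higher (344 at 7.5 hpf and 102 at 5.5 hpf), no filter on low counts called 8, 6 lower and 2 higher (242 and 92), and both kept the 3 genes, as did DESeq2 (3, with 84 at 5.5 hpf), RLE size factors and a filter on sibling CPM. Besides the 3 genes, the lower calls of the 12 libraries alone were gdf3 (-1.13) and the clone-named CR450805.1 (-13.2) and BX571854.1 (-9.22). With no filter they were tbxta (-0.757) and the same clone-named genes (-13.3 and -9.295). Why the counts of calls moved was not tested. Leaving out 1 library called 0 to 2 genes, with 51 to 140 at 7.5 hpf and 16 to 48 at 5.5 hpf. Leaving out both libraries of replicate 1 at 7.5 hpf called 0 (51 at 7.5 hpf), and, as alternatives chosen after seeing the data, leaving out both of replicate 2 at 5.5 hpf called 0, and leaving out both pairs called 0 (45 at 7.5 hpf); fewer libraries are left in these fits. The signs of the 3 genes held in all 21 alternatives, and notum1a passed in 11, noto in 5 and ism1 in 9. These alternatives are not all separate. In the paired fit, leaving out 1 library takes its pair out of the difference. Leaving out either library of a pair, or both, therefore gave nearly the same values.

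Signs turned for 8 other named genes, none of them called. Leaving out 1 library put cldnd between -0.81 and 0.11, sp8b between -0.59 and 0.46, msx1a between -0.061 and 0.42, msx1b between -0.31 and 0.56, znf503 between -0.37 and 0.39, six3b between -0.25 and 0.066, wnt8b between -1.24 and 0.48 and krt96 between -0.52 and 0.12. Krt96 was at 0.024 without the replicate 1 pair at 7.5 hpf and 0.0040 without both pairs. Without the replicate 2 pair at 5.5 hpf sp8b was at 0.46 and znf503 at 0.39, and without both pairs at 0.54 and 0.42. Depth limits genes with few reads at 5.5 hpf, en2a among them.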
